A study of Mus musculus with 6 samples.

Results

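The expression of 9 genes that mark trophoblast and placenta was followed on all 6 arrays of the series: Plac1, Elf5, Cdx2, Tfap2c, Hand1, Gata3, Gjb5, Rhox6 and Rhox9. They were chosen by name, as every probe set that the platform annotation gives to 1 of these 9 genes alone, which made 14 of the 45037 probe sets of the table and 9 of 18193 named genes. Where a gene had several probe sets, the brightest on average gave its level. All 9 passed the filter on dim genes, a mean signal at or above a floor of 41.2 (log2 5.37), as did 13277 of the 18193 genes. Elf5 passed it only through 1 bright array, and Gata3 and Cdx2 only narrowly when that array is left out.

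The arrays measured RNA of 2 mouse embryonic stem cell lines, 1 array for each line at days 0, 4 and 7. Cells of both lines are knockouts of Dnmt1, Dnmt3a and Dnmt3b, the genes of the DNA methyltransferases, and both express a DNMT1 again, ubiquitously per the series title: the complete protein (full-length cells) or a protein that lacks its first 602 amino acids (deletion cells). On day 0 the cells were stem cells in medium with 10% serum and leukaemia inhibitory factor (LIF), which holds mouse stem cells in self-renewal. Day 4 cells had been embryoid bodies for 1 day and attached cells for 3 days, without LIF. Day 7 cells had then spent 3 days in medium with 10% KSR, a serum replacement, and Activin A, used by the submitters at 10 ng/ml to bring on primitive streak formation. Each DNMT1 form is present in 1 line, so that form and line cannot be told apart, and the labels name neither clones nor repeat cultures.

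Trophoblast is the lineage that forms the placenta and separates from the rest of the embryo at the blastocyst stage. CDX2 and GATA3 act in the trophectoderm, ELF5, with EOMES and TFAP2C, maintains trophoblast stem cells, and HAND1 promotes the trophoblast giant cell fate. Embryonic stem cells ordinarily contribute little to this lineage. The Elf5 promoter is known to be methylated and silent in embryonic stem cells and unmethylated in trophoblast. DNA methylation was not measured on these arrays.

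At the end of the course all 9 genes read highest on the same array, that of full-length cells at day 7. The same held for 21.6% of all measured genes and 28.4% of the 1105 measured genes whose levels ranged over at least log2 2. Cdx2, Tfap2c and Hand1 ranged less than that and led their next array by only log2 0.34, 0.20 and 0.48, Cdx2 near the floor. The dimmer Hand1 probe set was not highest on that array. Since the 9 genes were chosen with earlier results of these data known, these shares are no independent standard. On the full-length day 7 array Plac1, Rhox6, Rhox9, Gjb5, Elf5 and Gata3 stood at least 2-fold above deletion cells. Cdx2, Tfap2c and Hand1 stood less than 2-fold above them. Elf5 passed the filter on dim genes only through that array, so its place was set by the filter, while the other 8 genes would have passed without it. The difference was widest for Plac1, 37.0-fold. None of the 9 genes was called in a test over both lines. The arrays are of mixed cells, in which more cells of a type and more RNA per cell cannot be told apart.

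The stretches of 250 bases before the annotated starts of Plac1 and Elf5 are shown because these genes had the largest differences between the lines at day 7, and because CpG dinucleotides, printed in capitals, are the sites that DNA methyltransferases act on. They are RefSeq sequences of GRCm38.p6 and read in the direction of the gene. The Plac1 windows lie at chrX:53240111-53240360 and chrX:53114406-53114655 on the minus strand and the Elf5 windows at chr2:103411848-103412097 and chr2:103423818-103424067 on the plus strand.
Plac1, first start: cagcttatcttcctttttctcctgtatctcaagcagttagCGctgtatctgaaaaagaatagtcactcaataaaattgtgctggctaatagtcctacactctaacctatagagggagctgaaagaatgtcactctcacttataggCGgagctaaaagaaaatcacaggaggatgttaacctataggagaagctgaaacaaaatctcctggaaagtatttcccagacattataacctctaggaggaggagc
Plac1, second start: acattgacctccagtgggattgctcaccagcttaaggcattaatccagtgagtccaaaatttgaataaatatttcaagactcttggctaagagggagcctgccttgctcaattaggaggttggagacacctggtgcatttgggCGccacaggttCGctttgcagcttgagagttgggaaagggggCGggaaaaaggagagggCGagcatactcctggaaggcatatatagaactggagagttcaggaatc
Elf5, first start: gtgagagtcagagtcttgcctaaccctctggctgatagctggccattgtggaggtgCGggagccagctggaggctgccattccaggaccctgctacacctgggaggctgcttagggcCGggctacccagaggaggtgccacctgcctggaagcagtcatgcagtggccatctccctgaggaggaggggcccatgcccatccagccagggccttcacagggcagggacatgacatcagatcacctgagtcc
Elf5, second start: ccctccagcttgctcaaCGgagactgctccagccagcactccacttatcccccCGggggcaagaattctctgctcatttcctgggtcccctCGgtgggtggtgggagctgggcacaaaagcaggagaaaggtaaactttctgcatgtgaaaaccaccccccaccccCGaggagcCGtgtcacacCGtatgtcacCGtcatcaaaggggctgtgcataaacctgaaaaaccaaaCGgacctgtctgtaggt

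The windows held 2 and 4 CpG dinucleotides for Plac1, and 2 and 8 for Elf5. Over all 32851 windows of this length in the table the median was 6, with quartiles of 2 and 16. Gjb5 had 3 in its window, Cdx2 13 and Gata3 19, which makes 7 windows in all. The table matched 5 of the 9 genes, without Hand1, Tfap2c, Rhox6 and Rhox9. The letters GCCNNNGGC, a core bound by AP-2 factors such as TFAP2C and the same on both strands, occurred in the windows of Cdx2, Gata3 and Gjb5 and in 13.7% of all windows. The letters GATAA on either strand, a GATA factor core, occurred in the second Elf5 window and the first Plac1 window and in 22.6% of all. A match shows letters only.

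Plac1 (chrX:53069993-53240110) encodes a secreted or membrane-bound protein found mainly in trophoblast. Its deposited log2 signals in full-length cells were 4.87, 9.29 and 12.62 at days 0, 4 and 7. In deletion cells they were 6.09, 8.62 and 7.41. Both lines thus started low and were higher at day 4, and after that they parted, with a further increase in full-length cells and a lower level in deletion cells. The full-length day 0 array was below the floor, so Plac1 at day 7 was at least 153-fold higher, which was the highest of all 13277 measured genes in that comparison. In deletion cells the change from day 0 to day 7 was 1.32 on the log2 scale. The day 7 difference between lines, -5.21 on the log2 scale as deletion minus full-length, was the lowest of all 13277 genes.

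Over both lines Plac1 had a log2 difference of 4.29 between days 7 and 0 (SE 1.16, limma adjusted p = 0.125, higher in both lines). Between days 4 and 0 it was 3.23 (SE 1.16, limma adjusted p = 0.224), and without the deletion day 7 array the same value was called (limma adjusted p = 0.0456). The residual spread of Plac1, 2.19, came from the difference of the lines' courses. Without the full-length day 7 array the fitted log2 difference of day 7 over day 4 turned from 1.06 to -1.56.

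Rhox6 (chrX:37827055-37829857) and Rhox9 (chrX:37899097-37901770) are homeobox genes of the X-linked reproductive homeobox cluster and are expressed in placenta. Rhox6 read 7.62, 10.10 and 12.37 in full-length cells and 8.30, 9.01 and 9.81 in deletion cells. Rhox9 read 7.66, 9.36 and 11.79 in full-length cells and 7.44, 8.43 and 9.08 in deletion cells. Both genes were higher at each later day in both lines, by wider steps in full-length cells. From day 0 to day 7 Rhox6 was 26.9-fold higher in full-length cells and 2.85-fold higher in deletion cells. For Rhox9 the same comparisons gave 17.5-fold and 3.12-fold. The genes are related in sequence, and whether their probe sets read each other's transcript was not tested.

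These genes came nearest to a call. Between days 7 and 0 the log2 difference over both lines was 2.88 for Rhox9 (SE 0.52, limma adjusted p = 0.0556) and 3.13 for Rhox6 (SE 0.62, limma adjusted p = 0.0678), and with arrays scaled to equal medians both were called (limma adjusted p = 0.0192 and 0.0228). The Rhox family was otherwise represented by 2 genes. Rhox13 rose between days 0 and 7 (log2 2.20, SE 0.24, limma adjusted p = 0.0190), to 10.98 in full-length cells and 10.63 in deletion cells, so its day 7 levels lay close together where those of Rhox6 and Rhox9 did not. Rhox5, known for silencing by DNA methylation in somatic cells, had levels of 12.35 to 13.79 and no call.

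Gjb5 (chr4:127354809-127358164) encodes a connexin, a gap junction protein of trophoblast and skin. Its levels were 7.20, 7.08 and 10.21 in full-length cells and 8.82, 7.40 and 7.61 in deletion cells. It was the gene of the set that went in opposite directions over the course: 8.06-fold higher at day 7 than at day 0 in full-length cells, and 2.31-fold lower in deletion cells. At day 0 it was also the one gene of the set at least 2-fold apart between the lines, 3.07-fold higher in deletion cells. Its log2 differences over both lines were small beside the residual spread of 1.53, with 0.90 for day 7 over day 0 (SE 0.83, limma adjusted p = 0.632), a value that turned to -0.89 without the full-length day 7 array and to -0.48 without the full-length day 0 array.

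Gap junction genes fixed as a list beside Gjb5 had 4 measured members of 7 named. Gja1, the connexin 43 gene, rose between days 0 and 4 (log2 1.60, SE 0.24, limma adjusted p = 0.0333), with levels of 13.74 and 13.75 at day 4. Gjb2, another connexin gene, named here after its values were seen, read 5.33, 7.38 and 9.06 in full-length cells and 4.79, 6.07 and 6.20 in deletion cells, a day 7 difference in the same direction as for Gjb5. Gja4 and Gja1 also differed in that direction at day 7, by log2 -1.67 and -0.88. Gjc1 differed in the other, by 0.66.

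Elf5 (chr2:103412098-103450989) encodes an ETS transcription factor of trophoblast stem cells. Its levels were 2.55, 5.41 and 8.22 in full-length cells and 3.11, 2.92 and 4.75 in deletion cells. Only the full-length day 7 array stood clearly above the floor, with the full-length day 4 array at the floor to within 0.04. Elf5 at day 7 was at least 7.24-fold higher in full-length than in deletion cells. The dimmer Elf5 probe set, whose mean signal was below the floor, read 6.13 on that array and below the floor on the other 5. Over both lines day 7 over day 0 gave a log2 difference of 1.43 (SE 0.68, limma adjusted p = 0.335), in which deletion cells contributed 0 since both of their arrays were set to the floor. With the floor at the 20th percentile the full-length change from day 0 to day 7 was 4.44 in place of 2.85.

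Gata3 (chr2:9857078-9887953) encodes a zinc finger factor of the trophectoderm that also acts in T cells and many epithelia. Its levels were 2.74, 7.01 and 8.01 in full-length cells and 1.68, 4.20 and 6.47 in deletion cells. Gata3 passed the floor at day 4 in full-length cells and at day 7 in deletion cells, and day 0 was below it in both. Between days 0 and 7 it was at least 6.25-fold higher in full-length cells and at least 2.15-fold higher in deletion cells. The log2 difference over both lines was 1.88 (SE 0.48, limma adjusted p = 0.112). At the lower floor the changes within the lines were 4.23 and 2.69.

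Cdx2 (chr5:147300900-147307249), the homeobox gene of the trophectoderm and of the posterior embryo, was at or near the floor throughout. Its levels were 5.46, 5.59 and 5.93 in full-length cells and 5.32, 5.48 and 5.23 in deletion cells, and its other probe set was below the floor on all 6 arrays. These values span 0.70 on the log2 scale, and no comparison of Cdx2 was called or reached 2-fold.

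Tfap2c (chr2:172545678-172558622) encodes AP-2 gamma, which acts in trophoblast, in primordial germ cells and in naive stem cells. It read 11.12, 9.89 and 11.62 in full-length cells and 11.33, 10.57 and 11.42 in deletion cells. Day 4 was the low point in both lines, as it was for Gjb5, and day 7 was back near day 0. All 3 of its probe sets showed the lower day 4 in both lines, by log2 0.97 to 1.35 in full-length cells and by 0.33 to 0.79 in deletion cells. The log2 difference of day 4 over day 0 was -0.995 (SE 0.23, limma adjusted p = 0.0863) and that of day 7 over day 4 was 1.29 (SE 0.23, limma adjusted p = 0.118). Tfap2c differed by log2 -0.20 between the lines at day 7.

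Hand1 (chr11:57828713-57832147) encodes a basic helix-loop-helix factor of trophoblast giant cells that also acts in extraembryonic mesoderm and heart. It read 6.38, 7.06 and 7.58 in full-length cells and 6.60, 7.10 and 7.08 in deletion cells. The lines lay within log2 0.50 of each other at each day, and day 7 was 2.30-fold above day 0 in full-length cells and 1.39-fold above it in deletion cells. The dimmer Hand1 probe set did not show this increase, with 5.66 at day 0 and 4.57 at day 7 in full-length cells, and with the mean of both probe sets the full-length change fell from 1.20 to 0.45. The log2 difference over both lines was 0.84 (SE 0.36, limma adjusted p = 0.283).

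**Figure D1:**
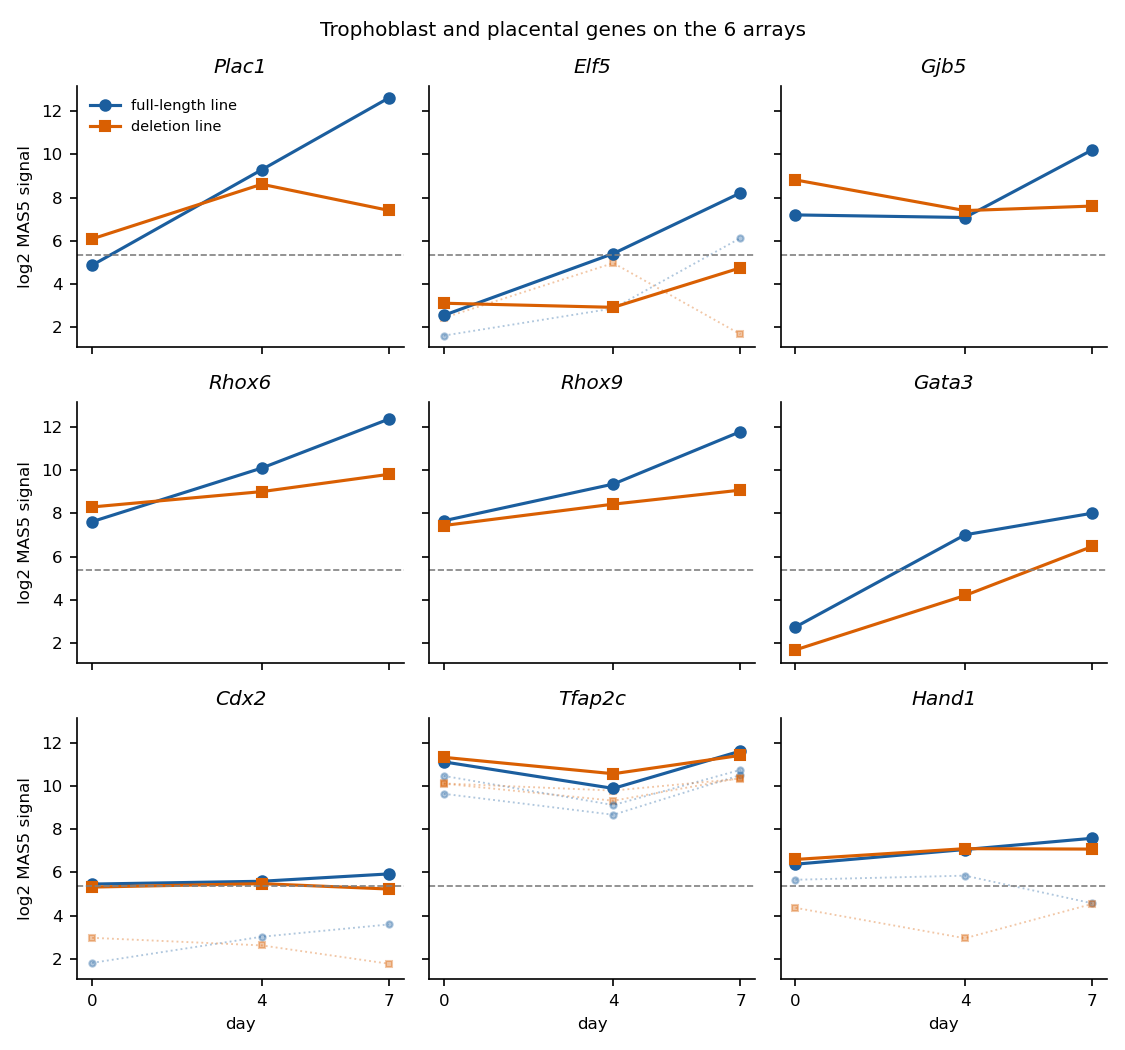
Log2 MAS5 signal (y axis) against day (x axis) for the 9 genes, with blue circles for full-length cells and orange squares for deletion cells; solid lines are the brightest probe set, pale dotted lines any other probe set, and the grey dashed line is the floor of 5.37. Each point is 1 array. Plac1, Rhox6, Rhox9, Elf5 and Gjb5 climb to their highest value in full-length cells at day 7, Tfap2c dips at day 4 in both lines, and Cdx2 stays at the floor.

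Time changes were first tested over both lines, to ask which genes moved alike in them. With limma, 0 of the 9 genes were called in any of the comparisons. All 9 differences were above 0 between days 7 and 0, where 5 had an unadjusted p under 0.05 and the lowest adjusted p was 0.0556. The median difference over all genes was 0.055 there. Not every gene of the set moved alike in both lines: in deletion cells Elf5 and Cdx2 changed by 0, at the floor, and Gjb5 by log2 -1.21. In that comparison 0.640% of the 13277 genes were called higher, 0.392% were called lower, and 17.3% had an unadjusted p under 0.05. Between days 4 and 0, 7 genes were above 0 and 2 below, and 4 had an unadjusted p under 0.05. Of all genes 0.881% were called higher there, 0.700% were called lower, and 16.2% had an unadjusted p under 0.05. Between days 7 and 4 all 9 were above 0 and 3 had an unadjusted p under 0.05, where of all genes 0.0151% were called higher, 0% lower, and 11.9% had an unadjusted p under 0.05. The last comparison shares its arrays with the other ones. Its signs for Plac1, Elf5, Cdx2, Hand1 and Gjb5 turned when the full-length day 7 array was left out.

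The line difference over the 3 days asks whether the DNMT1 form went with a constant offset. The differences of 8 of the 9 genes were below 0, lower in deletion cells, with 2 at an unadjusted p under 0.05 and 0 called. The lowest adjusted p with limma was 0.332, for Rhox9 (log2 -1.29, SE 0.43, lower in deletion cells at all 3 days). Of all genes 0% were called in either direction and 12.2% had an unadjusted p under 0.05. Without either day 7 array the fitted differences of Plac1, Hand1 and Gjb5 turned to 0.027, 0.13 and 0.97.

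The line difference varied from day to day, which could not be tested. At day 0, 1 of the 9 genes was at least 2-fold higher in deletion cells and 0 were lower, counting genes whose brighter array reached 2 times the floor, against 3.15% and 2.82% of all genes. At day 4, 2 were lower in deletion cells, Gata3 by at least 3.13-fold and Rhox6 by 2.13-fold, and 0 were higher, against 3.54% and 2.43% of all genes. At day 7, 6 were lower and 0 higher, against 8.92% and 3.95%. The median difference of the 9 genes went from 0.21 at day 0 through -0.11 at day 4 to -2.56 at day 7, where the median over all measured genes was -0.05. The day 7 count and median include Elf5, which passed the filter on dim genes only through the full-length day 7 array. Each comparison of the lines at a single day set 1 array against 1 array and had no test.

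**Figure D2:**
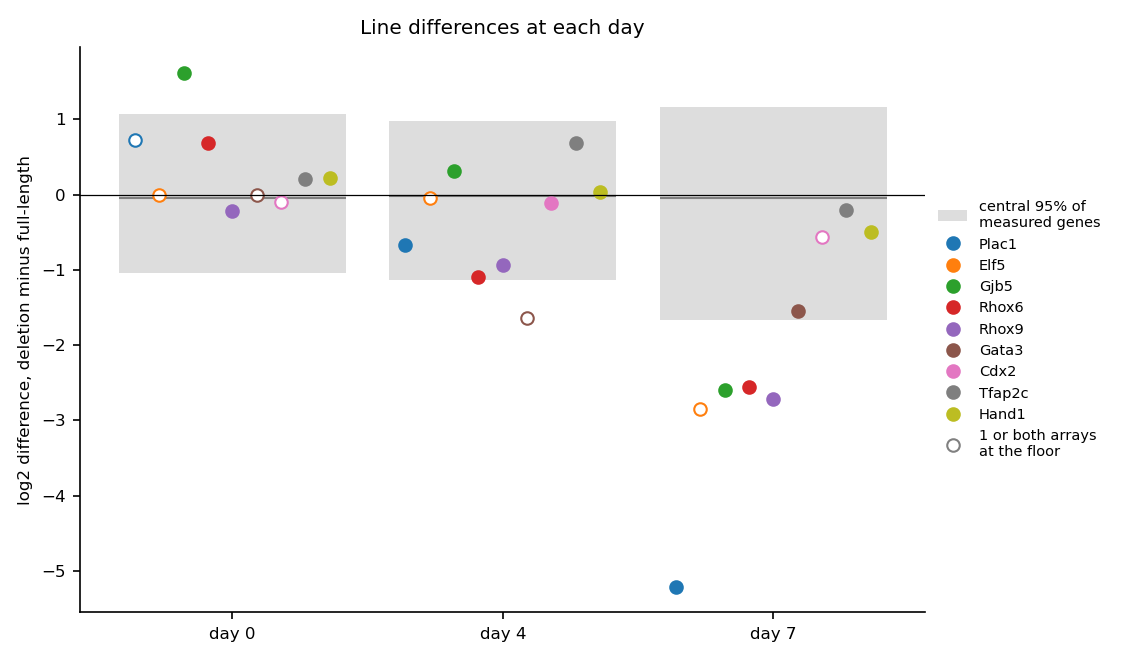
Log2 difference between the lines as deletion minus full-length (y axis) for each of the 9 genes at days 0, 4 and 7 (x axis); open symbols have 1 or both arrays at the floor, the grey band shows the central range of the measured genes, -1.67 to 1.17 at day 7, and the grey line their median. At day 7, Plac1 at -5.21 and Elf5, Rhox9, Gjb5 and Rhox6 between -2.85 and -2.56 lie below the band, while Gata3, Cdx2, Hand1 and Tfap2c lie within it.

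The changes within each line were read in the same way, array against array. In full-length cells 7 of the 9 genes were at least 2-fold higher at day 7 than at day 0, all but Cdx2 and Tfap2c, and 0 were lower, against 9.96% and 4.27% of all genes. In deletion cells 4 were, Plac1, Gata3, Rhox6 and Rhox9, and Gjb5 was lower, against 6.25% higher and 4.72% lower. The full-length increase of Gjb5 fell between days 4 and 7, with log2 3.13, while Rhox6 and Rhox9 were higher by log2 1.70 or more in each interval. Elf5 changed by log2 2.81 between days 4 and 7, and how much it changed before day 4 is not known, since day 0 was below the floor. Over days 4 to 7, 7 genes were at least 2-fold higher and 0 lower in full-length cells, against 5.20% and 3.14% of all genes. In deletion cells 1 was higher, Gata3, and 1 lower, Plac1, against 4.78% and 5.97%. Over days 0 to 4, 4 genes were higher in full-length cells (8.14% of all genes) and 1 in deletion cells (6.26%), and 1 was lower in each (5.03% and 4.07%). Both full-length counts of 7 include Elf5, which passed the filter on dim genes only through the full-length day 7 array. How far the courses of the lines differed was not tested, since the additive model uses that difference as its residual.

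Other genes of the lineage were read from lists. The 12 calls of single list genes given with a limma adjusted p, Rhox13 and Gja1 included, held at the lower floor, with the pseudocount and with both other scalings. With averaged probe sets or no variance trend 1 of the 12 held, that of Krt18, with day alone 1 held, that of Krt8, and with all genes tested 0 held. With an array left out 0 to 3 held. Of 23 regulators of trophectoderm and trophoblast stem cells, 22 were measured. Cited2, a transcriptional co-regulator needed for placental development, rose by day 4 (log2 1.39, SE 0.15, limma adjusted p = 0.0131) and stood at log2 1.30 over day 0 at day 7 (limma adjusted p = 0.0224), with 1.31 in full-length and 1.29 in deletion cells. Esrrb, an orphan nuclear receptor shared by naive stem cells and trophoblast stem cells, fell by day 4 (log2 -1.68, SE 0.27, limma adjusted p = 0.0349). The other 20 were not called. The median change between days 0 and 7 was 0.32 in full-length cells and -0.05 in deletion cells, beside 0.06 and 0.03 over all genes. At day 7 the median line difference of the list was -0.37, and 7 of its 22 genes read highest on the full-length day 7 array, a share near the 21.6% and 28.4% given above. Eomes, a partner of Elf5 in trophoblast stem cells and also a primitive streak gene, read 7.23 in full-length cells and 7.92 in deletion cells at day 7, the reverse of the order seen for Elf5. At days 0 and 4 Eomes was lower in deletion cells (log2 -0.81 and -0.92), and its line difference reached 2-fold at no day.

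Further genes of this list, Plet1 and Sfmbt2, were picked after their values were seen. Plet1, a trophoblast progenitor surface gene, read 8.06, 8.80 and 11.72 in full-length cells and 8.34, 9.34 and 9.59 in deletion cells. Sfmbt2, an imprinted Polycomb-related gene needed for trophoblast, read 8.16, 9.73 and 10.23 in full-length cells and 9.02, 8.88 and 8.13 in deletion cells. Their day 7 levels were lower in deletion cells by log2 2.13 and 2.10, with neither gene called over both lines. Other regulators, also picked after their values were seen, were higher in deletion cells at day 7, Klf5 by log2 1.47, Tead4 by 0.76 and Sox2 by 0.74.

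Of 42 genes of differentiated trophoblast and placenta, 34 were named by a probe set of 1 gene and 17 were measured. The 17 others had mean signals below the floor and included Tpbpa, the spongiotrophoblast marker, and the placental cathepsin genes Ctsq and Ctsj. Sct, which encodes the hormone secretin, rose between days 0 and 7 (log2 3.70, SE 0.47, limma adjusted p = 0.0255, and 0.0931 without a variance trend), to 11.30 in full-length cells and 8.71 in deletion cells. It was the 1 called gene of this list. The list's median change from day 0 to day 7 was 1.02 in full-length cells and 0 in deletion cells, and 10 of its 17 measured genes read highest on the full-length day 7 array, beside the same 21.6% and 28.4%. At day 7 the list's median line difference was -1.94, beside -0.05 over all genes. The filter on dim genes used all 6 arrays, so a list gene can have passed it through the full-length day 7 array alone. Pparg did so, with 7.79 on that array and at most 5.87 on the others. How many of the 10 genes did so was not counted.

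Further genes of this list, chosen after their values were seen, followed Plac1 in being higher in full-length cells at day 7. Nrk, an X-linked kinase gene of spongiotrophoblast, read 11.45 there and 8.82 in deletion cells, from 7.76 and 7.34 at day 0. Cdkn1c, an imprinted inhibitor of the cell cycle active in giant cells, read 12.19 and 9.89, from 8.89 and 8.40. Ascl2, an imprinted factor gene of the ectoplacental cone, read 9.80 and 7.62, from 5.85 and 7.63. Phlda2, an imprinted gene that limits placental growth, was also higher in full-length cells at day 7 but had another course from day 0. It read 11.39 in full-length cells at day 7, against 11.57 at day 0, and 8.91 in deletion cells, against 11.37. Other measured genes of the list, also picked after their values were seen, did not follow Plac1. As deletion minus full-length at day 7, Ovol2 differed by log2 0.24, Ceacam9 by 0.125, Prl2a1 by 0 and Wnt7b by -0.09. Psg21 was below the floor in both lines at day 7.

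Keratins of simple epithelia, which trophoblast shares with many other epithelia, were higher at day 7 in both lines. Krt7, Krt8, Krt18 and Krt19 rose between days 0 and 7, with log2 differences of 4.15, 4.62, 3.93 and 4.18 (limma adjusted p from 0.00037 to 0.0250), and so did Cldn7 (log2 1.35, limma adjusted p = 0.0357). These were 5 of 9 measured genes of that list. With averaged probe sets Krt18 alone of the 5 was called (limma adjusted p = 0.0184, and 0.0666 to 0.109 for the others). Krt7 read 11.87 in full-length cells and 9.35 in deletion cells at day 7, a difference of log2 -2.52, and Krt19 12.55 and 10.04. Cdh1 and Epcam, general epithelial genes, had levels of 12.59 to 13.53 and no call.

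**Figure D3:**
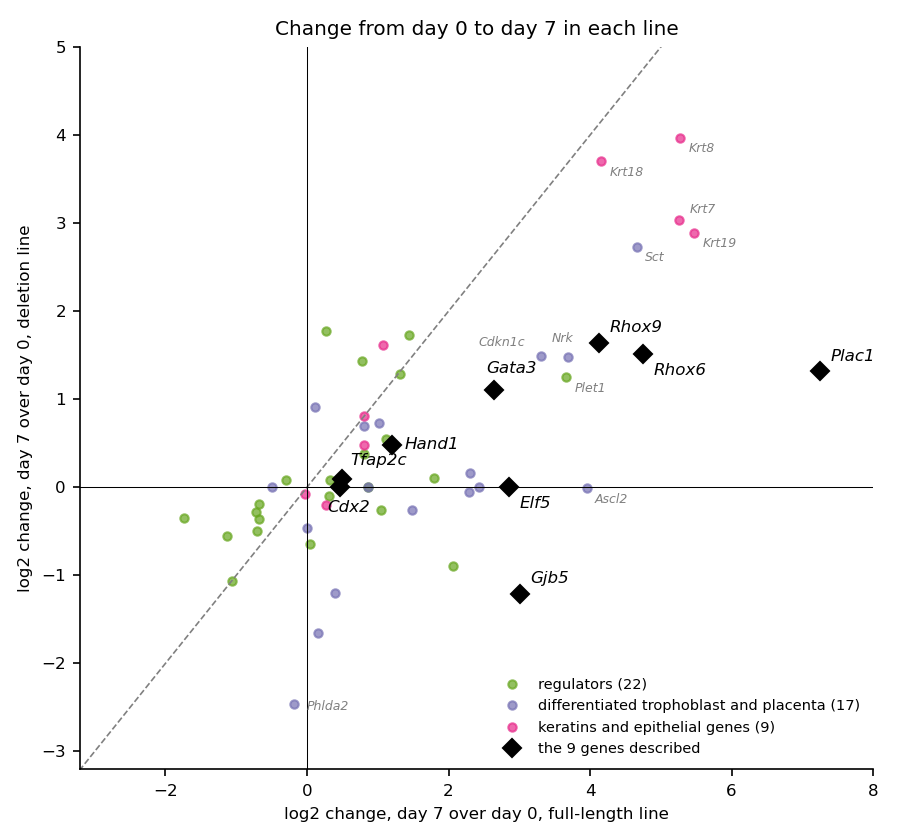
Log2 change from day 0 to day 7 in full-length cells (x axis) and in deletion cells (y axis), after the floor was applied; black diamonds are the 9 genes, green points 22 regulators, violet points 17 genes of differentiated trophoblast and placenta, and pink points 9 keratins and epithelial genes, with equal change on the dashed line. Plac1 lies farthest to the right, at 7.25 against 1.32, Gjb5 lies below 0 for deletion cells, and Krt18, at 4.16 against 3.70, lies close to equal change.

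The genes whose levels followed those of the set most closely were taken from 1066 named and measured genes with a range of at least log2 2, by Pearson r over the 6 arrays. All 6 arrays share the scaling, the lines and the days, so r is a description here. For Plac1 they were Tmprss2, a serine protease gene (r 0.986), Rhou (r 0.985), and Mbnl3, an RNA-binding protein gene on the X chromosome (r 0.983). For Rhox6 they were Irx3 (r 0.987), Slc5a3 (r 0.986) and Rhox9 (r 0.982). For Rhox9 they were Mmd (r 0.999), Aph1b (r 0.991) and Myl4 (r 0.990). For Gata3, Thnsl2 (r 0.982), the keratin gene Krt7 (r 0.973) and Mal (r 0.972) came first.

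Elf5 was matched most closely by Aldh1a7, Six6 and Serpinb9g (r of 1.000 for the first 2 and 0.988 for Serpinb9g), but at least 4 of the 6 arrays were at the floor for each of these genes, so that r rests mainly on the full-length day 7 array. Aldh1a7 read 7.64, Six6 9.07 and Serpinb9g 8.30 on that array. Gjb5 had looser matches, Wscd2 (r 0.909), Plat (r 0.887) and Iqca (r 0.886). Within the set, Rhox6 and Rhox9 correlated with Plac1 at r 0.954 and 0.948 and with Gata3 at r 0.950 and 0.951, and Gjb5 correlated with Plac1 at r 0.584.

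**Figure D4:**
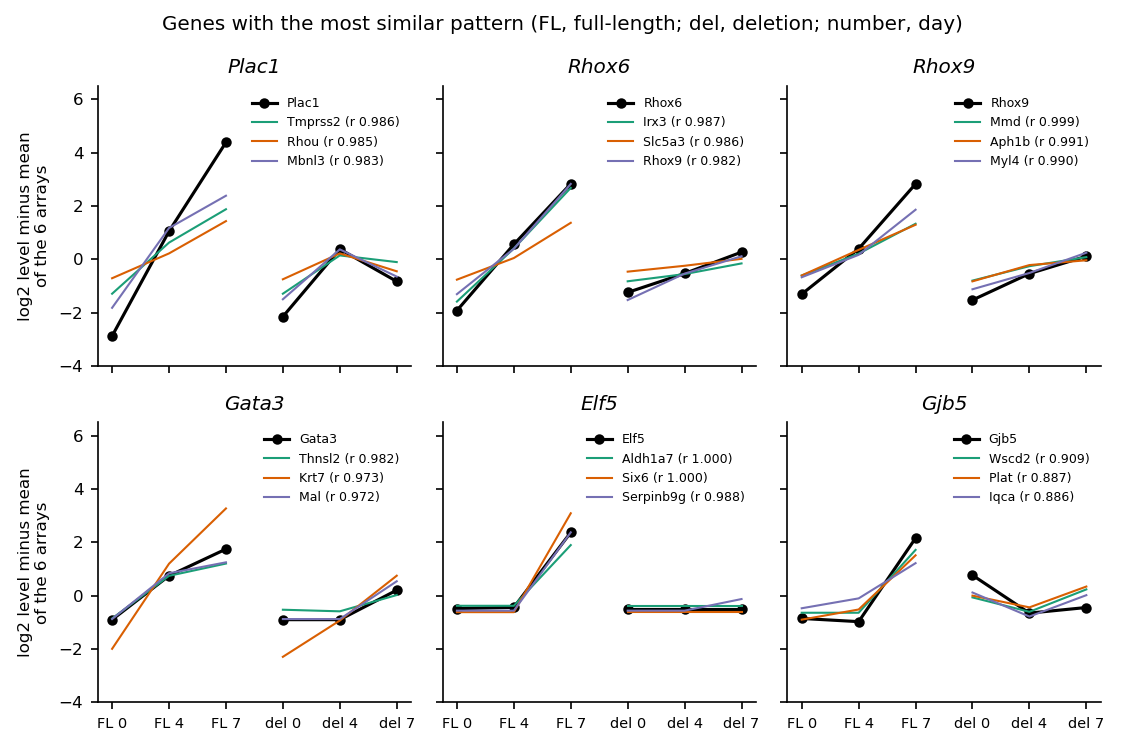
Log2 level minus the mean of the 6 arrays (y axis) on each array (x axis, line and day) for 6 genes of the set in black and, in colour, the 3 genes with the highest Pearson r to each. The full-length arrays stand left in each panel. For Elf5 the full-length day 7 array carries nearly the whole pattern, while for Plac1, Rhox6 and Rhox9 the matches also follow the day 4 arrays.

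Markers of other cells were read beside these results, since Tfap2c, Hand1, Gata3 and Cdx2 act outside trophoblast as well. Pou5f1 and Nanog, which define pluripotent cells, read between 12.77 and 14.02 on all 6 arrays. The summed signal of the 12 pluripotent stem cell genes was 88265 at day 0 and 53415 at day 7 in full-length cells, and 75252 and 76533 in deletion cells. At day 7 the sum was thus lower in full-length cells, but it weighs bright genes most. The median line difference of the list at day 7, deletion minus full-length, was 0.395. Single genes, picked after their values were seen, differed in direction, with log2 -1.41 for Fgf5, -1.50 for Pou3f1 and 2.30 for Tbx3. Whether the sum was related to the levels of Plac1 and the Rhox genes was not tested. Of these 12 genes 3 were called higher and 4 lower between days 4 and 0, against 0.881% and 0.700% of all genes. Between days 7 and 0, 1 was called higher and 1 lower, against 0.640% and 0.392%. The source label of the deletion day 0 array describes differentiated cells while its title gives day 0. Klf4, a naive stem cell gene, read 13.15 on it, against 12.22 in full-length cells at day 0 and no more than 10.94 on the later arrays. Of 13 named primitive streak and posterior mesoderm genes 3 to 6 per array were at or above the floor, their summed signal ran from 538 to 1675, and Mixl1, Cdx1 and Cdx4 had mean signals below the floor. Of 15 extraembryonic and lateral mesoderm genes 10 to 13 were at or above it, with summed signals of 2485 to 3937 and 0 of 12 measured genes called. Neither list was highest on the full-length day 7 array, at 552 and 2521.

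Some other lists moved between arrays with the trophoblast genes or against them. Among surface and amniotic ectoderm genes, Krt14 rose between days 0 and 7 (log2 2.76, limma adjusted p = 0.0363, with values below the floor at day 0 in both lines). It read 8.71 and 7.53 at day 7 in full-length and deletion cells, while Krt5 read at most 6.24 and Trp63 had a mean signal below the floor. Postn, which is also on the fibroblast list, was called lower at day 4 than at day 0 (log2 -3.91), though not at the lower floor. The extraembryonic endoderm list, 16 genes, had a summed signal of 8835 in full-length cells and 14866 in deletion cells at day 7. Afp read 8.32 and 11.04 there. Sparc, the brightest gene of this list at 12.61 and 12.99, weighs most on these sums and differed by log2 0.38. The median line difference of the list at day 7, deletion minus full-length, was 0.94. Of the 16 genes 3 were called higher between days 4 and 0 and 2 between days 7 and 0, Afp in both. The shares of all genes called higher were 0.881% and 0.640%. The primordial germ cell list, 8 named genes, summed to 9761 and 25877 in full-length and deletion cells at day 7. Such sums weigh bright genes most, here Dazl and Dppa3, which were higher in deletion cells by log2 2.53 and 1.04. Prdm1, Dnd1 and Kit differed by log2 0.48, -0.11 and 0.28, and the median over the 7 measured genes was 1.03. By these sums the endoderm and germ cell lists were higher in deletion cells at day 7. Plac1, Elf5 and the Rhox genes were higher in full-length cells there. The fibroblast list, 14 named genes, was highest on the deletion day 0 array (17377) and lay between 3327 and 8747 on the others. Of its 13 measured genes 6 were called lower and 0 higher between days 4 and 0, against 0.700% and 0.881% of all genes. Between days 7 and 0, 4 were called lower and 0 higher, against 0.392% and 0.640%. Bgn, for example, changed by log2 -3.40 in full-length and -3.71 in deletion cells between days 0 and 4. Acta2, at 10.81 and 12.71 on the full-length arrays of days 0 and 4, went the other way and weighs on the sums. What part the cells of these lists had in the results was not tested.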

How the data were processed

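Total RNA of 6 samples was biotin-labelled for Affymetrix arrays, per the labels' protocols. MAS5 is the tool named in the submitters' processing notes for the deposited signals. Their range of 0 to 15.68 shows a log2 scale, although the authors do not state a log base. Version and scaling target were not given in the sources used here, and detection calls were not used. Global scaling makes a level relative to its array. Array medians lay between 6.02 and 6.19, and 350 to 514 probe sets per array were listed at 0. The number of arrays limits the precision.

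Samples were grouped by title. Gene names came from the platform annotation (34945 with 1 symbol, 932 with several). Signals below the floor, the median over arrays of each array's 40th percentile, were set to it, so a difference from the floor is a lower bound. Levels of different genes were not compared, since probe sets differ in response. The summed list signals weigh bright probe sets most. Fits used limma 3.58.1 in R 4.3.3 on all 13277 measured genes, with line and day as additive factors, a variance trend and two-sided p-values, adjusted by Benjamini-Hochberg to a threshold of 0.05. There were 2 residual degrees of freedom and a prior of 5.63. With no replicates the p-values measure only the spread between these arrays. In comparisons of single arrays a gene counted when it differed 2-fold or more and its brighter value reached 2 times the floor. Alternatives were another floor, a pseudocount of 32, no filter, averaged probe sets, 2 other scalings, no trend, no line term and each array left out.

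The 9 genes, the lists and the tests were chosen with earlier results of these data known. Genes were named from the 9, the called genes of each list or otherwise those of widest range, and the 3 most similar genes. Exceptions are stated. Not every gene that met this rule was named. The pluripotent stem cell, extraembryonic endoderm and fibroblast lists held called genes that were only counted. The keratin list held 4 calls between days 4 and 0 that are not described. Afp, Klf4, Fgf5 and Pou3f1, named for their levels, were also called. Eomes, Rhox5, Cdh1, Epcam, Krt5, Trp63, Pou5f1, Nanog, Pparg, Acta2, Prdm1, Dnd1, Gja4, Gjc1, Sparc and dim markers were named as list members outside this rule.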

Additional observations from a re-analysis of the deposited data

Results flagged for a closer look

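Plac1 and Gjb5 went in opposite directions in the 2 lines, each by at least 2-fold, and the difference between lines was not tested because each line and day has 1 array. Plac1 changed by log2 3.33 between days 4 and 7 in full-length cells and by -1.21 in deletion cells. Gjb5 changed by log2 3.01 between days 0 and 7 in full-length cells and by -1.21 in deletion cells.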

How the results depend on the processing

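For the 9 genes, 475 refitted values kept their direction and side of the threshold. With arrays scaled to equal medians Rhox6 and Rhox9 were called between days 7 and 0 (limma log2 3.13 and 2.88), and without the deletion day 7 array Plac1 was called between days 4 and 0 (limma log2 3.23). Another 17 changed sign with 1 array left out; ranges over the arrays left out follow. Day 4 over day 0 ran from -0.70 to 0.75 for Elf5 (below 0 without full-length day 0 or deletion day 4) and from -2.15 to 0.61 for Gjb5 (above 0 without deletion day 0). Day 7 over day 4 was lowest without full-length day 7, with ranges of -1.56 to 3.68 for Plac1, -0.011 to 2.82 for Elf5, -0.12 to 0.34 for Cdx2, -0.065 to 0.565 for Hand1 and -0.115 to 3.46 for Gjb5. Day 7 over day 0 ran from -0.0275 to 0.62 for Tfap2c (below 0 without full-length day 7) and from -0.885 to 2.69 for Gjb5 (below 0 without full-length day 7 or day 0). The line difference ran from -2.94 to 0.027 for Plac1, from -0.23 to 0.13 for Hand1 and from -1.14 to 0.97 for Gjb5, above 0 without either day 7 array.

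The 12 calls of list genes given with a limma adjusted p were also refitted. Of these, 1 held with averaged probe sets, 1 without a trend, 1 with day alone, 0 with all genes tested and 0 to 3 with an array left out. Counts over all genes moved more. Between days 4 and 0, 210 genes were called, and 0 with all genes tested, 13 with averaged probe sets, 16 without a trend, 18 with day alone and 0 to 129 with an array left out. Between days 7 and 4 the 2 calls became 1 at the lower floor, 1 with the pseudocount, 0 with averaged probe sets, 41 with equal medians (27 higher and 14 lower), 1 with quantiles, 0 without a trend, 1 with day alone and 0 with any array left out. Between days 7 and 0 the 137 calls became 88 at the lower floor, 73 with the pseudocount, 0 with all genes tested, 3 with averaged probe sets, 213 with equal medians, 3 without a trend, 12 with day alone and 0 to 10 with an array left out. The line comparison called 0 genes in every setting run. The causes were not tested. Of single-array values for the 9 genes, 392 moved by less than the gene's own residual spread and 13, of Elf5, Gata3, Cdx2 and Hand1, by more. That spread comes from the difference of the lines' courses and ran from 0.19 for Cdx2 to 2.19 for Plac1. The check is therefore lenient for genes whose courses differed widely. The line term pairs the arrays of a line across days, and the setting with day alone leaves that pairing out.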
